A study of Mus musculus with 12 samples.

Results

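The double mutant Mdmx-Tg/Pu.1-URE-/- was compared with Wild-type in mouse bone marrow cells that had been sorted as Flk2-negative, lineage-negative, Sca-1-positive and Kit-positive. The comparison took the 3 double-mutant and the 3 Wild-type libraries, 6 of the 12 in the study. The double mutant carries both the Mdmx transgene and the loss of the upstream regulatory element (URE) of Pu.1. The other 6 libraries carry 1 lesion each, 3 of them Mdmx-Tg and 3 Pu.1-URE-/-, and are given beside the members as the single-lesion levels. The labels give each library a mouse number of its own, so each was taken as 1 animal. Age, strain, sex, the promoter of the transgene and the number of clones or founders are not given in the sources used here. PolyA RNA was sequenced in pairs of 100 bp, and every gene's estimated reads were summed over its transcripts.

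MDMX, the product of Mdm4, binds p53 and restrains its activity. PU.1, the product of Spi1, is an ETS transcription factor that drives monocytic, B-cell and part of the granulocytic programme, and its level sets which of these programmes a progenitor follows. The upstream element maintains Spi1 transcription in stem and myeloid cells, and mice without it are known to develop a preleukaemic state. The sorted compartment holds haematopoietic stem cells and early multipotent progenitors, which normally carry little RNA for the granule proteins of maturing neutrophils.

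Each of the 12 libraries held 47231506 to 55030235 reads in genes, and 12824 to 14117 genes reached 10 reads. Libraries of 1 genotype correlated at 0.848 to 0.912 on the log2 scale, and Wild-type with double-mutant libraries at 0.792 to 0.847. The immunoglobulin share of reads was 31.2%, 10.3% and 0.427% in Wild-type 1, 2 and 3. In double mutant 1, 2 and 3 it was 0.131%, 4.13% and 2.35%. Y-linked genes summed to 214, 199.9 and 222 counts per 1000000 reads (CPM) in Wild-type 2, double mutant 1 and double mutant 3, and to 1.88 to 5.70 CPM in the other 9 libraries. High Y-linked levels were thus found in 1 of 3 Wild-type and 2 of 3 double-mutant libraries. The call counts with the Y-linked level and with Jchain, a plasma cell gene, as a covariate are given beside the totals.

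Of the targeted genes, Mdm4 was high in every library labelled with the transgene, while the Spi1 totals of Pu.1-URE-/- and Wild-type overlapped. Mdm4 (chromosome 1, 132959484 to 133030561, GRCm38) had 77.9, 70.9 and 35.8 CPM in the Wild-type libraries against 353, 163 and 210 CPM in the double mutant. The groups did not overlap, and Mdm4 rose 3.93-fold (log2 1.98 ± 0.46, approximate SE, edgeR adjusted p = 0.0439). That call was kept in 2 of the 12 runs with 1 library left out. Most of the added Mdm4 reads were assigned to the transcript Mdm4-201, with 12128, 4477 and 5742 reads in the double mutant against 106, 0 and 0 in Wild-type. Mdm4-210 stood at 3200, 3278 and 3758 reads in the double mutant and at 3154, 3614 and 2059 in Wild-type, so its ranges overlapped. Spi1 (chromosome 2, 91082390 to 91115756) had 37.98, 5.33 and 8.08 CPM in the Wild-type libraries against 3.48, 1.84 and 0.0198 CPM in the double mutant. All 3 double-mutant libraries lay below all Wild-type libraries, but the difference did not pass (log2 -3.27 ± 1.29; edgeR adjusted p = 0.209). In Pu.1-URE-/- Spi1 stood at 8.73, 8.73 and 23.9 CPM, inside the Wild-type range (log2 -0.31; edgeR adjusted p = 0.934). The Spi1-202 transcript had 0 reads in each double-mutant and each Pu.1-URE-/- library and 53 to 65.5 in Wild-type. The main coding transcript Spi1-201 kept 158, 99 and 1 reads in the double mutant.

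Of 15012 genes tested, 502 passed (edgeR quasi-likelihood test, adjusted p under 0.05), which is 3.34% of those tested. Of these, 131 fell (0.873%) and the others rose (2.47%). At an unadjusted p under 0.05, 2772 genes passed (18.5%). Among the genes that rose, 363 were protein coding, 199 differed more than 4-fold and 94 more than 16-fold. No read was counted in any Wild-type library for 40 of them. Among the 131 genes that fell, 121 were protein coding, 81 differed more than 4-fold and 52 more than 16-fold. For 25 of these no read was counted in any double-mutant library. The total was 178 with the Y-linked level as a covariate, 167 with Jchain as a covariate, and 91 without both Wild-type 1 and double mutant 3. Leaving out Wild-type 1, 2 or 3 gave 231, 162 or 179 calls, leaving out double mutant 1 or 3 gave 167 or 236, and leaving out Pu.1-URE-/- 3 gave 314.

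Genes of neutrophil granules and of late neutrophil maturation made up the largest rises. Of the 60 tested genes on 3 lists (azurophil granules, specific and gelatinase granules, and S100 and late neutrophil genes), 36 rose and 0 fell, against 2.47% of all genes tested. In RNA per transcript length (TPM) the 3 lists held 0.216%, 0.309% and 0.628% of Wild-type libraries and 10.98%, 6.05% and 6.93% of the double-mutant libraries. Camp, Ngp, S100a8 and Elane ranked 3, 4, 7 and 8 among the tested protein-coding genes by mean TPM in the double mutant. In bulk RNA, more cells that hold granule RNA and more granule RNA per cell cannot be told apart. The count of 36 was 26 with either covariate, 23 without Wild-type 2, and 17 without Wild-type 1 and double mutant 3.

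**Figure D1:**
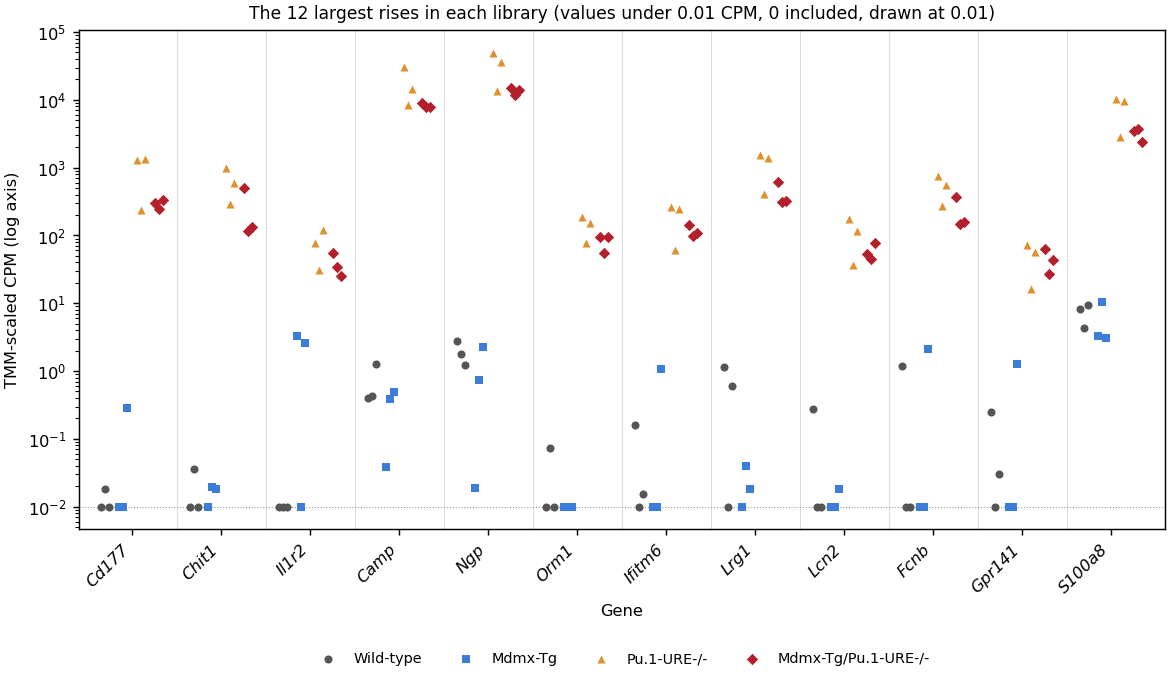
TMM-scaled CPM (log axis) of the 12 largest rises, 1 point per library and 4 genotypes by colour and shape. In every gene the 3 double-mutant libraries lie above the 3 Wild-type libraries, many of which have no read.

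Specific granule proteins are made late in neutrophil maturation, at the myelocyte stage. Camp, the precursor of the antimicrobial peptide cathelicidin, had 0.406, 0.436 and 1.25 CPM in the Wild-type libraries against 9052, 7868 and 7944 CPM in the double mutant (log2 13.52 ± 1.06; edgeR adjusted p = 0.000309). Ngp, a secondary granule protein, had 2.80, 1.78 and 1.21 CPM in the Wild-type libraries against 15114, 11662 and 13965 CPM in the double mutant (log2 12.78 ± 1.39; edgeR adjusted p = 0.00120). Over the 3 Wild-type libraries Camp had 124 reads and Ngp 301, and in both genes every double-mutant library lay far above every Wild-type library. Lcn2, which encodes the siderophore-binding lipocalin NGAL, had 12 reads over the 3 Wild-type libraries and stood at 52.98, 44.5 and 78.2 CPM in the double mutant (log2 9.48 ± 1.22). Cd177, a neutrophil surface glycoprotein, had 1 read in Wild-type and stood at 300, 246 and 332 CPM in the double mutant. Chit1, a chitinase, had 2 reads in Wild-type and stood at 499, 115 and 132 CPM in the double mutant, where library 1 was highest. In all, 9 of 16 tested specific and gelatinase granule genes rose, and the list's median log2 difference was 10.07, or 8.01 with the 3 genes that had no read in 1 group set at their lower bound. The median over all genes tested was 0.04.

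Some granule genes had few or no reads, and 16 of the 20 listed specific and gelatinase granule genes were tested. Chil3 of that list had 0 reads in the double mutant, as had Asprv1, Il1b and Stfa2 of the S100 and late neutrophil list. Mmp8 and Mmp9, a collagenase and a gelatinase of neutrophil granules, had 0 reads over the 3 double-mutant libraries and 6 and 1 reads over Wild-type. Mmp25, a membrane-bound metalloproteinase of neutrophils, had 22 reads in the double mutant, all in library 3, and 0 in Wild-type. Ltf, the lactoferrin gene, stood at 6.63, 5.25 and 6.01 CPM against 0 to 0.203 in Wild-type and did not pass (edgeR adjusted p = 0.0890).

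Azurophil granules form earlier, at the promyelocyte stage, and their serine proteases were already present in Wild-type. Elane, neutrophil elastase, had 216, 162 and 294 CPM in the Wild-type libraries against 11932, 4287 and 4683 CPM in the double mutant, a 31.1-fold rise (log2 4.96 ± 0.52; edgeR adjusted p = 0.00102). Ctsg, cathepsin G, went from 114, 118 and 239 CPM to 4345, 1705 and 2683 CPM (log2 4.21 ± 0.46). Mpo, myeloperoxidase, went from 761, 890 and 1804 CPM to 10981, 3168 and 8458 CPM, a 6.54-fold rise (edgeR adjusted p = 0.0186). In all 3 genes double mutant 1 was highest and every double-mutant library lay above every Wild-type library. Prtn3, proteinase 3, rose 7.34-fold. Of 18 tested genes on the azurophil list, which also holds Fcnb and Nkg7, 12 rose, with a list median of 3.05.

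The S100 and late neutrophil list held 15 genes that rose among 26 tested. S100a8, a calcium-binding subunit of calprotectin, had 8.33, 4.25 and 9.42 CPM in the Wild-type libraries against 3449, 3680 and 2398 CPM in the double mutant, a 433-fold rise (log2 8.76 ± 0.77; edgeR adjusted p = 0.000496). Its partner S100a9 stood at 4.54, 1.63 and 4.37 CPM against 590, 520 and 492 CPM, and did not pass (edgeR adjusted p = 0.0578). Retnlg, a resistin-like secreted protein of neutrophils, had no read in Wild-type and stood at 22.2, 21.4 and 29.9 CPM, at least 1345-fold higher against a floor of 3 reads over the Wild-type group. Ly6g, the surface antigen recognised by Gr-1 antibodies, had no read in Wild-type and stood at 3.96, 7.03 and 10.2 CPM. It belongs to the lineage markers that a lineage-negative sort selects against. Lrg1 rose from 0 to 1.15 CPM in Wild-type to 311 to 621 CPM in the double mutant. The NADPH oxidase, which makes superoxide in phagocytes, had 3 of 8 genes rise, Ncf1 (log2 4.69), Ncf4 (log2 3.32) and Rac2 (log2 1.46). The call of Rac2 was kept in 2 of the 12 runs with 1 library left out.

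The genes of the 3 lists were also high in Pu.1-URE-/-, where they held 8.96% to 22.1% of TPM, and low in Mdmx-Tg, where they held 0.388% to 0.467%. Of the 36 granule genes that rose in the double mutant, 33 had a lower mean there than in Pu.1-URE-/-. Their median log2 difference between these 2 genotypes was -1.04, with 13 at an unadjusted p under 0.05 and 0 that passed. Camp stood at 30216, 8354 and 14241 CPM in Pu.1-URE-/-, and S100a8 at 10447, 2808 and 9556 CPM. Pu.1-URE-/- 2 was the lowest of its group for both, so the ranges of the 2 genotypes met for each gene.

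The promoters of 11 of the 12 genes with the largest rises and 8 of the 12 with the largest falls were matched in RefSeq (GRCm38.p6), as 250 bases before to 50 bases after the start. Each was searched on both strands for the C/EBP letters TTGCNNAA and the PU.1/ETS letters GAGGAAGT. Some of the promoters with matches are shown, 1 of them from a gene that fell. Each is read 5′ to 3′ along the gene, with matches in capitals. They are Ngp (chr9:110419558-110419857, plus strand), Lcn2 (chr2:32387690-32387989, minus strand), S100a8 (chr3:90668821-90669120, plus strand) and Rnase6 (chr14:51128814-51129113, plus strand).
Ngp: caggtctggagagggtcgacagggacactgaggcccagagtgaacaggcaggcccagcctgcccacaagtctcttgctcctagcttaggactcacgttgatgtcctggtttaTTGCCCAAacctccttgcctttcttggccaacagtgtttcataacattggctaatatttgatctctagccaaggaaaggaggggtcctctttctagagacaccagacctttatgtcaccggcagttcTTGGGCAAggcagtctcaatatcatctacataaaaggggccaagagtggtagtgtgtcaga
Lcn2: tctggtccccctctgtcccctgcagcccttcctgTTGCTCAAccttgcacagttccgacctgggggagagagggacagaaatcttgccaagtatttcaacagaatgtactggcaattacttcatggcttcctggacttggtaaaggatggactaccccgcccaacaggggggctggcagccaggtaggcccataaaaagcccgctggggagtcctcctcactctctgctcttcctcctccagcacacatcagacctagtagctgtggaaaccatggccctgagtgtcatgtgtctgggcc
S100a8: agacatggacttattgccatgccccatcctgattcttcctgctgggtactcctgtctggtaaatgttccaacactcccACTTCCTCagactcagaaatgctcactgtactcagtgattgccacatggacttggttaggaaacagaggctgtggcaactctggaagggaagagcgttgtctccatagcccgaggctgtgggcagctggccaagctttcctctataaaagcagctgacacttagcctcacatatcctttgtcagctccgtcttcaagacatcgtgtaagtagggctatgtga
Rnase6: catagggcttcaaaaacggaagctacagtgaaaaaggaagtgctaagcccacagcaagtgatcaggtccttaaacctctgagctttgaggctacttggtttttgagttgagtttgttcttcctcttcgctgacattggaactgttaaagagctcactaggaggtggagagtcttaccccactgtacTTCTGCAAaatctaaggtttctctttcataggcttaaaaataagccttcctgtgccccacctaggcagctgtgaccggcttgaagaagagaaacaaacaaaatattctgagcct
The C/EBP letters were found in promoters of 3 of the 11 genes with rises (Ngp, Lcn2 and Fcnb) and of 3 of the 8 with falls (Cd300a, Rnase6 and Tspan8). They occur in 10.8% of all 32851 promoters of that length. The 2 matches of Ngp lie 138 and 11 bases before the start. The PU.1/ETS letters were found in S100a8 alone, on the minus strand, and in 3.20% of all promoters. No match of one motif overlapped one of the other in these promoters.

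Of 29 tested myeloid transcription factors 3 rose, Cebpa, Gfi1 and Ets1, and 0 fell (2.47% of all genes tested rose). Cebpa, which starts granulocytic commitment, had 2.17, 1.25 and 1.19 CPM in the Wild-type libraries against 29.9, 17.3 and 12.4 CPM in the double mutant, a 12.9-fold rise (log2 3.69 ± 0.45; edgeR adjusted p = 0.00226). It stood at 6.30 to 9.05 CPM in Mdmx-Tg and at 23.8 to 41.1 CPM in Pu.1-URE-/-. Gfi1, a repressor needed for neutrophil development, stood at 3.997, 2.79 and 2.85 CPM against 79.1, 29.3 and 33.0 CPM, a 14.7-fold rise (edgeR adjusted p = 0.00190). Ets1 rose from 3.50 to 12.8 CPM to 29.3 to 185 CPM (edgeR adjusted p = 0.0393), a call kept in 3 of the 12 runs with 1 library left out, while those of Cebpa and Gfi1 were kept in all 12. Cebpe, the factor of terminal granulocytic maturation, stood at 5.87, 0 and 1.53 CPM against 261, 184 and 87.9 CPM, without overlap, and did not pass (edgeR adjusted p = 0.0659).

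Of 40 tested genes known to be activated by PU.1, 3 rose and 5 fell, with a list median of -1.27 (2.47% of all genes tested rose and 0.873% fell). Those that rose were Ncf1, Ncf4 and Fcer1g, the common gamma chain of Fc receptors, which had 33.2, 27.1 and 44.7 CPM in the Wild-type libraries against 300, 196 and 216 CPM in the double mutant. Those that fell were Btk, Lst1, Rnase6, Tbxas1 and Cd180, and the call of Cd180 was kept in 3 of the 12 runs with 1 library left out. Tbxas1, thromboxane synthase, had 99.5, 102 and 99.3 CPM in the Wild-type libraries against 0.623, 4.93 and 1.57 CPM in the double mutant, a 42.2-fold fall (log2 -5.40 ± 0.83; edgeR adjusted p = 0.00710). Btk, the tyrosine kinase of B-cell receptor signalling, stood at 57.5, 48.1 and 77.0 CPM against 5.63, 2.31 and 6.30 CPM. Rnase6, a secreted antimicrobial ribonuclease, stood at 59.8, 37.5 and 26.6 CPM against 0.462, 3.29 and 1.41 CPM. All 3 genes were below every Wild-type library in the 3 Pu.1-URE-/- libraries too. In Mdmx-Tg, Tbxas1 and Rnase6 overlapped Wild-type, while Btk, at 30.8 to 46.7 CPM, did not reach the lowest Wild-type library.

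**Figure D2:**
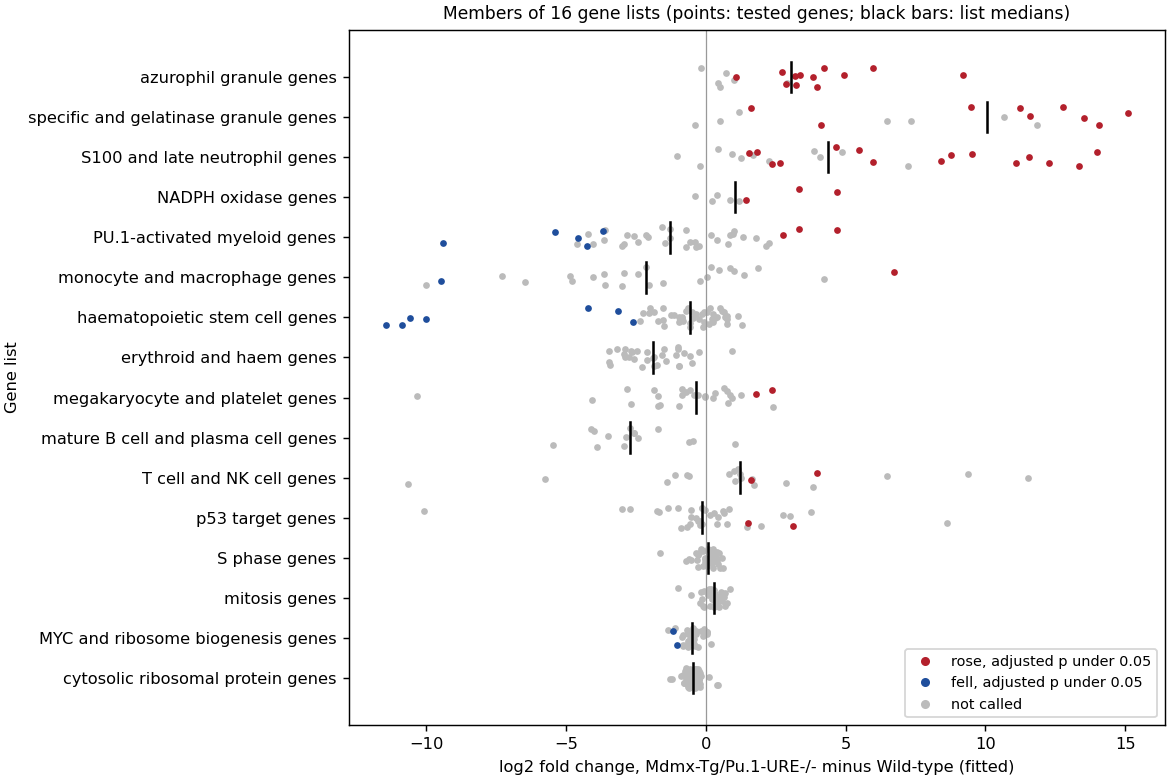
Fitted log2 difference between the double mutant and Wild-type for the tested members of 16 gene lists, with genes that rose in red, genes that fell in blue and list medians as black bars. The 3 granule and late neutrophil lists have medians of 3.05, 10.07 and 4.35, and fitted values of genes with no read in 1 group depend on the prior count.

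The 12 largest falls were taken from protein-coding genes whose log2 CPM averaged 1 or more and whose groups did not overlap, and they included secreted factors, immune receptors and signalling genes. Serpinf1, a secreted anti-angiogenic serpin, had 63.1, 71.2 and 74.0 CPM in the Wild-type libraries against 2.91, 1.95 and 3.09 CPM in the double mutant, a 26.2-fold fall (log2 -4.71 ± 0.38; edgeR adjusted p = 0.000309). Gdf3, a ligand of the TGF-beta family, stood at 34.0, 44.9 and 64.5 CPM against 0.0603, 0.149 and 0.159 CPM (log2 -8.58 ± 0.81; edgeR adjusted p = 0.000570). Both were lower in every double-mutant library than in all 9 others. Tspan8, a tetraspanin, stood at 77.2, 39.7 and 35.0 CPM against 5.13, 1.56 and 5.73 CPM. Ebi3, a subunit of the cytokines IL-27 and IL-35, stood at 61.7, 22.2 and 21.1 CPM against 0.261, 1.47 and 1.84 CPM. Its call was kept in 3 of the 12 runs with 1 library left out. Cd300a, an inhibitory immune receptor, stood at 35.6, 24.4 and 24.6 CPM against 0.221, 1.53 and 0.575 CPM. Some genes had no read left. Tfec, a factor related to MITF, had 13.1, 7.77 and 12.8 CPM in the Wild-type libraries and at 0 in all 6 libraries without the Pu.1 element, at least 577-fold lower. Cd86, a T-cell costimulatory ligand, stood at 4.06, 2.56 and 6.88 CPM against 0, at least 231-fold lower, and was also at 0 in the 3 Pu.1-URE-/- libraries. Tfec and Cd86 were picked from the genes at 0 after their values were seen.

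**Figure D3:**
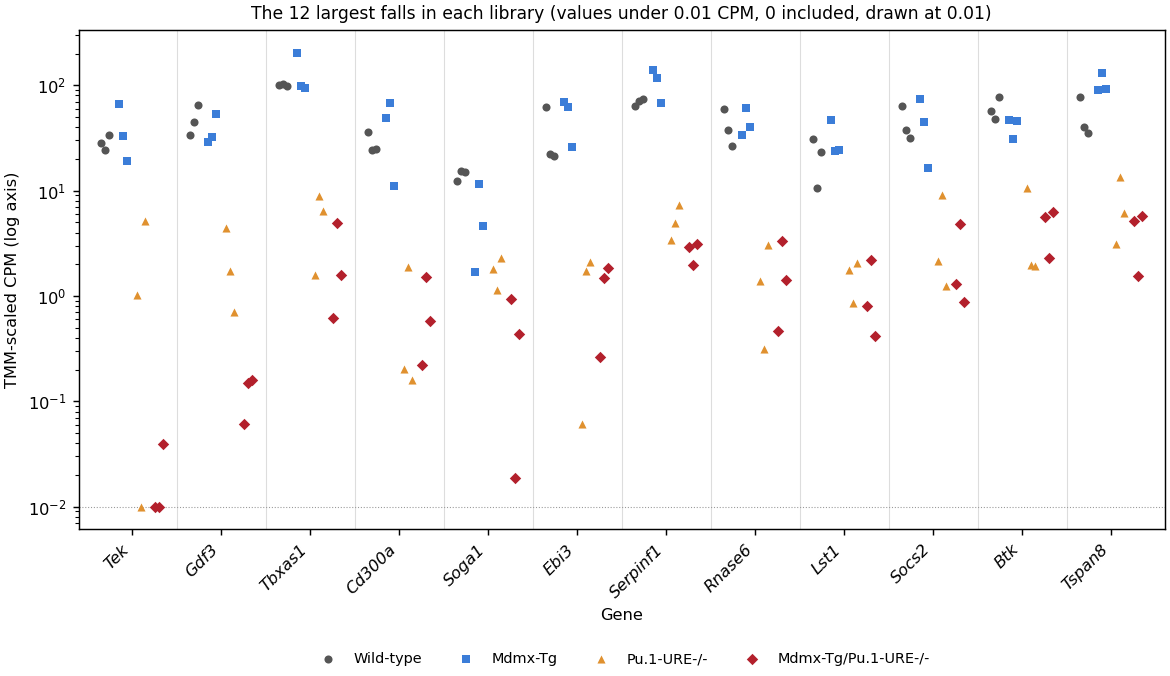
TMM-scaled CPM (log axis) of the 12 largest falls, 1 point per library and 4 genotypes by colour and shape. The 3 double-mutant libraries lie below the 3 Wild-type libraries in each gene.

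Stem cell genes were lower in part. Of 53 tested, 7 fell and 0 rose, against 0.873% of all genes that fell, and 19 lay below Wild-type without overlap, against 10.8% of all genes tested. The 7 were Cdkn1c, Mllt3, Trim47, Tek, Socs2, Hoxb5 and Clec1a. Tek, the angiopoietin receptor Tie2 of quiescent stem cells and endothelium, had 28.4, 24.0 and 33.4 CPM in the Wild-type libraries against 0, 0 and 0.0396 CPM in the double mutant, where it had 2 reads. Mllt3, a reader that maintains human and mouse stem cells, stood at 124, 62.4 and 102 CPM against 12.04, 23.9 and 11.3 CPM (log2 -2.61 ± 0.42; edgeR adjusted p = 0.00814). Socs2, a feedback inhibitor of cytokine receptors, stood at 62.8, 37.3 and 31.5 CPM against 1.29, 4.86 and 0.872 CPM. Cdkn1c, the CDK inhibitor p57 of quiescent stem cells, stood at 3.09, 1.54 and 2.66 CPM against 0 reads, at least 125-fold lower. Hoxb5 stood at 4.22, 3.65 and 2.88 CPM against 0, at least 184-fold lower. The count of 7 was 3 without Wild-type 1, 2 or 3, 2 without double mutant 1 or 3, 3 to 4 with the mouse number range, the Y-linked level or Jchain in the fit, and 0 without both Wild-type 1 and double mutant 3.

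Of 15 tested genes of the sorting gate 2 rose, Cd48 and Ly6g, and 1 fell, Ptprc (2.47% of all genes tested rose and 0.873% fell). Kit, Ly6a, Flt3 and the stem cell marker gene Slamf1 did not pass. Kit had 274, 328 and 311 CPM in the Wild-type libraries against 240, 165 and 261 CPM in the double mutant, and Ly6a, which encodes Sca-1, at 97.2, 29.7 and 15.0 against 57.9, 41.9 and 58.2 CPM. The RNA of both sorting markers was present in all 6 libraries. Flt3, which encodes Flk2, stood at 12.3, 7.06 and 13.6 CPM against 53.7, 35.6 and 50.1 CPM, without overlap (edgeR adjusted p = 0.0936). Slamf1, which encodes CD150, stood at 28.5, 19.4 and 36.1 CPM against 8.22, 4.63 and 7.55 CPM (edgeR adjusted p = 0.199). Cd48, whose product marks multipotent progenitors rather than stem cells, rose from 46.0, 68.7 and 78.9 CPM to 285, 200.3 and 198 CPM (log2 1.82 ± 0.32; edgeR adjusted p = 0.0120). Ptprc, the leukocyte antigen CD45, fell from 138 to 143 CPM to 40.6 to 54.0 CPM (edgeR adjusted p = 0.00786). Meis1, Hlf and Procr overlapped between the groups.

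The erythroid list had no call, and its genes differed widely among the double-mutant libraries. Of 32 genes tested, 31 had a lower fitted level in the double mutant, 23 lay below Wild-type without overlap (10.8% of all genes tested did), and 0 passed, with a list median of -1.87. Klf1, the master factor of the erythroid programme, had 405, 593 and 506 CPM in the Wild-type libraries against 1.63, 145 and 20.2 CPM in the double mutant (log2 -3.17, edgeR adjusted p = 0.179). Gata1 stood at 143, 213 and 216 CPM against 6.15, 74.1 and 9.40 CPM (edgeR adjusted p = 0.117). Car1, a carbonic anhydrase of early red cells, stood at 1243, 2034 and 1815 CPM against 16.6, 608 and 58.7 CPM. Epor, the erythropoietin receptor, stood at 47.4, 57.1 and 58.2 CPM against 1.35, 24.4 and 3.69 CPM. In each of these genes double mutant 2 was the highest of its group. Without double mutant 2, 17 of the 32 genes passed, all lower, and the list median was -3.62. DESeq2 called 14, limma-voom called 7, and with the mouse number range or without Mdmx-Tg 3 there were 2. Double mutant 2 was also the double-mutant library with low Y-linked reads, while Wild-type 2, with high Y-linked reads, had the highest Klf1 and Car1 of all libraries. The part of sex in this spread was not tested. In the single-lesion genotypes Klf1 was at 101 to 477 CPM in Mdmx-Tg and at 93.0 to 223 CPM in Pu.1-URE-/-. These genes were picked from the list after their values were seen.

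**Figure D4:**
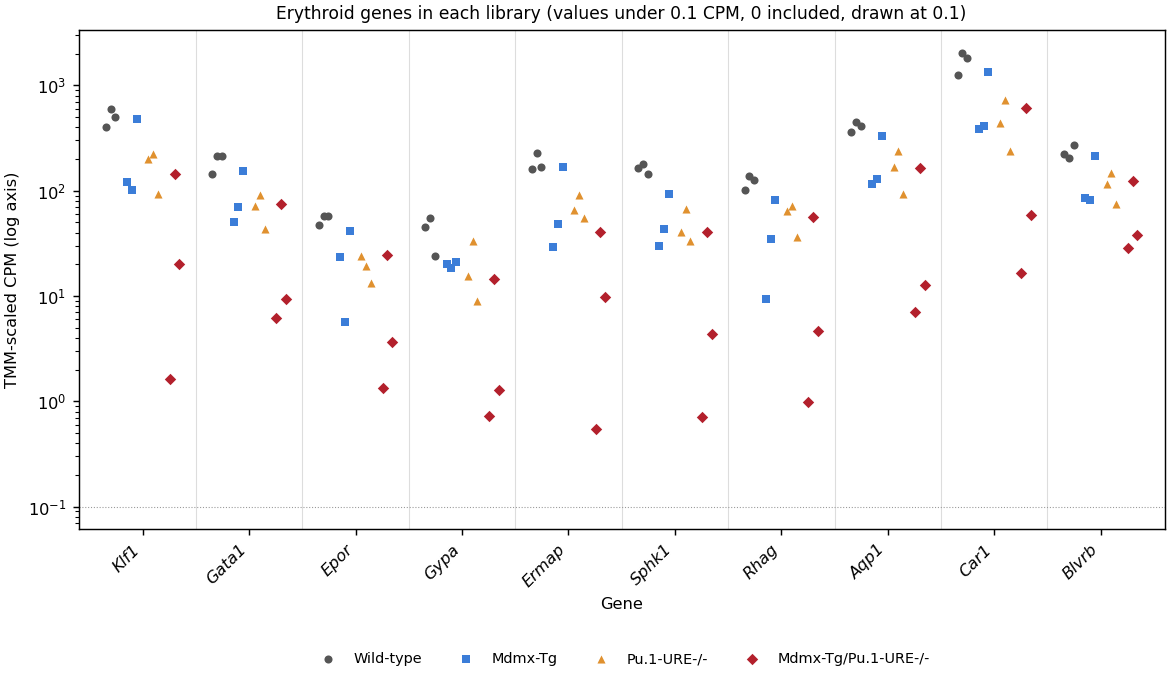
TMM-scaled CPM (log axis) of 10 erythroid genes, 1 point per library and 4 genotypes by colour and shape. In every gene double mutant 2, the middle diamond, is the highest of the 3 double-mutant libraries, with Klf1 at 145 CPM against 1.63 and 20.2.

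Calls among markers of other blood cells are set beside the 2.47% of all genes tested that rose and the 0.873% that fell. Of 25 monocyte and macrophage genes 1 rose and 1 fell. Their median was -2.15, with 16 below 0. Without overlap, 7 lay below Wild-type and 5 above (10.8% and 15.2% of all genes tested did). Vcam1, an adhesion molecule of marrow macrophages and stroma, rose from 5.35, 1.91 and 10.03 CPM to 1073, 403 and 380.6 CPM (log2 6.74 ± 0.82; edgeR adjusted p = 0.00221), and stood at 971 to 2661 CPM in Pu.1-URE-/-. Ms4a6c had 2 reads in the double mutant and 6.42 to 15.3 CPM in Wild-type. Csf1r, the receptor that defines macrophages, stood at 0.0558 to 0.139 CPM in the double mutant and was not called. Of 22 mast cell, basophil and eosinophil genes 2 rose, Srgn and the basophil protease Mcpt8. Mcpt8 had 11.5, 44.4 and 30.2 CPM in the Wild-type libraries against 376, 168 and 360 CPM in the double mutant. The call of Srgn was kept in 3 of the 12 runs with 1 library left out. The median of this list was -1.15, with 15 genes below 0. Without overlap, 6 of its genes lay below Wild-type and 4 above (10.8% and 15.2% of all genes tested did). Of 21 T and NK cell genes 2 rose, Nkg7 and Lat, and Nkg7 is also on the azurophil list. In the lymphoid priming list 2 of 29 rose, Notch1 and Satb1, and 1 fell, Bcl11a. In the megakaryocyte list 2 of 28 rose, Cd9 and Thbs1. The call of Thbs1 was kept in 3 of the 12 runs with 1 library left out. The median of the megakaryocyte list was -0.35, with 17 genes below 0. Without overlap, 10 of its genes lay below Wild-type and 3 above (10.8% and 15.2% of all genes tested did).

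The mature B cell and plasma cell list had 0 calls of 15 tested and a median of -2.70. Jchain had 23728, 7315 and 388 CPM in the Wild-type libraries against 119, 2659 and 1531 CPM in the double mutant, so the groups overlapped. The summed list ranged from 616 to 26559 CPM in Wild-type and from 846 to 3170 CPM in the double mutant, and without Wild-type 1 its median was -1.09. Outside this list, 6 immunoglobulin V genes, 1 C gene and 1 V pseudogene fell, and 1 V pseudogene rose. Among those that fell, Igkv12-44 had 11026, 1560 and 75.3 CPM in Wild-type 1, 2 and 3 against 0.744, 0.0186 and 0.0396 CPM in the double mutant. Tnfrsf13c, also outside the list, fell from 31.8, 12.2 and 1.96 CPM to 0 (edgeR adjusted p = 0.00878). Of 19 dendritic cell and MHC class II genes, H2-Eb1 fell, a call kept in 3 of the 12 runs with 1 library left out. In the endothelial and stromal list 3 of 14 rose, Flt1, Pecam1 and Vim, and Tek fell. Of all genes tested 2.47% rose and 0.873% fell. Flt1, a VEGF receptor that monocytes also use, had 0 reads in all 6 Wild-type and Mdmx-Tg libraries and stood at 24.5, 4.97 and 1.86 CPM in the double mutant. Pecam1 rose from 14.9 to 29.2 CPM to 77.3 to 156 CPM.

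Cell cycle lists had few calls. Of 41 S phase genes 0 passed in either direction, with a median of 0.08, and of 40 mitosis genes 0 passed, with a median of 0.30 and 13 above Wild-type without overlap (15.2% of all genes tested were). Cdk1, the kinase of mitotic entry, stood at 123, 180 and 193 CPM against 270, 280 and 344 CPM (edgeR adjusted p = 0.103). The mitosis median was 0.09 without Wild-type 1. Among G1 regulators, Cdkn1b, the CDK inhibitor p27, rose from 31.1, 31.6 and 39.8 CPM to 109, 52.6 and 144 CPM (log2 1.58 ± 0.34; edgeR adjusted p = 0.0295) while Cdkn1c fell. Cdkn1b stood at 79.8 to 129 CPM in Mdmx-Tg and at 27.9 to 37.8 CPM in Pu.1-URE-/-, so that all 6 libraries with the transgene lay above the 6 without it.

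Calls in the growth and metabolism lists are likewise set beside the 2.47% of all genes tested that rose and the 0.873% that fell. Nop2 and Pes1, which process ribosomal RNA, fell among 38 MYC and ribosome biogenesis genes, 34 of which had a negative log2 difference. Of these 38, 14 lay below Wild-type without overlap, against 10.8% of all genes tested. The calls of Nop2 and Pes1 were kept in 6 and 4 of the 12 runs with 1 library left out. Nop2 stood at 127 to 128 CPM in Wild-type and at 39.2, 77.9 and 54.5 CPM in the double mutant. Of 74 cytosolic ribosomal protein genes 0 passed, 71 had a negative difference and the median was -0.45. None of the 13 mitochondrially encoded genes and none of the 49 nuclear oxidative phosphorylation genes passed. Of the mitochondrially encoded genes 11 had a positive difference, and 6 lay above Wild-type without overlap (15.2% of all genes tested did). Their median was 0.42, and their median difference from Wild-type was 0.63 in Mdmx-Tg and 0.01 in Pu.1-URE-/-. The nuclear genes had a median of -0.07. Of 33 glycolysis and pentose phosphate genes 2 rose, Gpi1 and Pgk1, the last from 238, 284 and 310 CPM to 455, 465 and 470 CPM. Srebf2, the factor that drives cholesterol synthesis, fell from 62.4, 52.2 and 68.5 CPM to 37.1, 27.3 and 33.5 CPM (edgeR adjusted p = 0.0430) and was the only call among 22 genes of that pathway. In the eicosanoid list Lta4h and Ltc4s, which make leukotrienes, rose and Tbxas1 fell. Oas1a and Irgm1 fell among 48 interferon response genes, Ccl3 among 25 NF-kappaB genes and Hsph1 among 30 immediate early and stress genes. With 1 library left out, the calls of Ccl3, Irgm1, Pgk1, Srebf2 and Hsph1 were kept in 1, 3, 4, 4 and 5 of the 12 runs.

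Targets of p53 gave 2 rises and 0 falls among 36 tested, with a median of -0.13 (2.47% of all genes tested rose and 0.873% fell). Xpc, a DNA damage sensor of nucleotide excision repair, had 24.1, 25.3 and 33.9 CPM in the Wild-type libraries against 316, 162 and 252 CPM in the double mutant (log2 3.13 ± 0.33; edgeR adjusted p = 0.00107). It stood at 248 to 495 CPM in Pu.1-URE-/- and at 20.6 to 31.2 CPM in Mdmx-Tg, close to Wild-type. Apaf1, the scaffold of the apoptosome, rose from 14.5 to 19.4 CPM to 40.8 to 50.8 CPM (edgeR adjusted p = 0.0278), a call kept in 5 of the 12 runs with 1 library left out. Cdkn1a, the classical p53 target p21, stood at 10.9, 16.5 and 13.1 CPM against 10.5, 16.1 and 4.90 CPM (edgeR adjusted p = 0.839). Mdm2 and Trp53 did not pass either (edgeR adjusted p = 0.241 and 0.522).

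Of 21 Wnt/beta-catenin target genes 0 passed, with a median of 0.27 and 7 above Wild-type without overlap (15.2% of all genes tested were). The smallest p was that of Id2, at 11.7, 5.46 and 13.8 CPM against 50.9, 27.5 and 46.8 CPM (edgeR adjusted p = 0.0646). Among 35 Wnt pathway components, the ligand Wnt5b rose. It had no read in 8 of the 9 other libraries and stood at 3.16, 3.65 and 1.82 CPM in the double mutant, at least 158-fold higher than in Wild-type (edgeR adjusted p = 0.0398). That call was kept in 3 of the 12 runs with 1 library left out, and was lost with the replicate block. Leukaemia-associated self-renewal genes gave 3 rises (Clec12a, Cd96 and Cd93) and 2 falls (Socs2 and Hoxb5, described with the stem cell genes) among 50 tested. Of all genes tested 2.47% rose and 0.873% fell. Clec12a, a marker of leukaemic stem cells, rose from 22.1 to 24.3 CPM to 135 to 283 CPM. Cd96, another such marker, rose from 4.61, 6.82 and 14.7 CPM to 72.4, 68.5 and 49.9 CPM (log2 2.87 ± 0.54; edgeR adjusted p = 0.0183). Cd93 rose from 47.9 to 60.9 CPM to 144 to 152 CPM. Kmt2c was the only call among 38 epigenetic regulators, and fell from 47.1 to 53.6 CPM to 15.3 to 26.9 CPM. Among 14 imprinted growth genes Grb10, Phlda2 and Cdkn1c fell.

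The double mutant was also set beside each single lesion. These comparisons share the double-mutant libraries, and those against Wild-type share its libraries. Against Mdmx-Tg 348 genes passed (2.32%), 251 higher (1.67%) and 97 lower (0.646%). Against Pu.1-URE-/- 0 passed in edgeR, with 1601 at an unadjusted p under 0.05 (10.7%), 0 in limma-voom and 329 in DESeq2. The interaction of transgene and element had 0 calls, 871 at an unadjusted p under 0.05 (5.80%), 0 in limma-voom and 194 in DESeq2. Between Pu.1-URE-/- and Wild-type 707 genes passed (4.71%), 577 higher (3.84%) and 130 lower (0.866%), with 19.8% at an unadjusted p under 0.05. Over the genes that rose against Wild-type, the median log2 difference from Wild-type was 2.14 in the double mutant, 2.32 in Pu.1-URE-/- and 0.44 in Mdmx-Tg. Of the 131 that fell, it was -2.55, -1.65 and -0.34. The mean was below that of Pu.1-URE-/- in 240 of the genes that rose and in 106 of those that fell. Over all genes tested the median log2 difference between the double mutant and Pu.1-URE-/- was 0.006. The choice of genes by their difference from Wild-type affects both counts, so they are given as descriptions.

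Some called genes stood beyond every other library. The 3 double-mutant libraries lay above all 9 others in 42 of the genes that rose, or 11.3% of them (1.27% of all genes tested did) and below all 9 others in 25 of the 131 that fell, or 19.1% (0.433%). The choice of genes that differ from Wild-type raises both counts, so they are given as descriptions. Marcks, an actin-binding substrate of protein kinase C, had the smallest p of the comparison and had 7.66, 8.20 and 5.63 CPM in the Wild-type libraries, 20.5 to 24.998 CPM in Mdmx-Tg, 47.2 to 48.7 CPM in Pu.1-URE-/- and 90.0, 70.0 and 81.9 CPM in the double mutant (log2 3.49 ± 0.22; edgeR adjusted p = 9.09e-05). Bin1, a membrane-curving adaptor, stood at 7.89 to 14.8, 15.1 to 18.9, 40.6 to 69.3 and 75.5 to 95.2 CPM in the same order. Among the genes that rose these 2 were the ones whose 4 genotypes did not overlap in that order. Sirt3, a mitochondrial deacetylase, stood at 134 to 172 CPM in Wild-type and at 348, 294 and 496 CPM in the double mutant, with 158 to 226 CPM over both single lesions. Cd48, Cd93, Vim and Satb1 were also above all 9 others. The difference from Pu.1-URE-/- did not pass for any of them (edgeR adjusted p = 0.406 for Marcks).

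**Figure D5:**
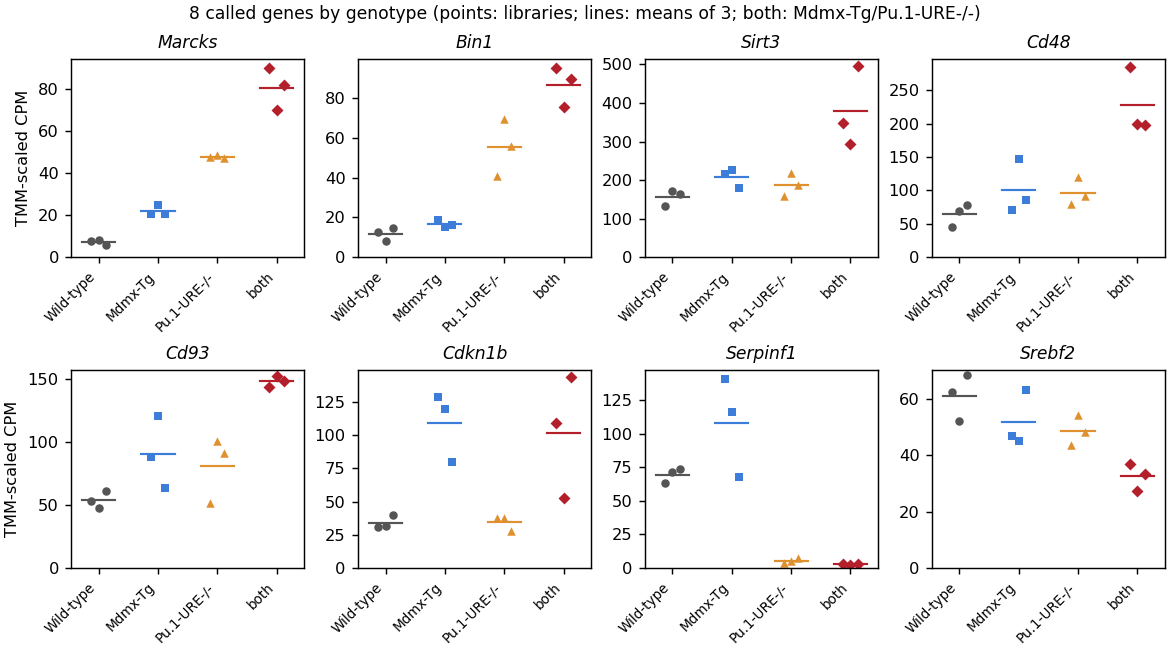
TMM-scaled CPM of 8 called genes, 1 panel per gene, with 3 points per genotype and their mean as a line. Marcks and Bin1 have 4 genotype ranges in ascending order, and Cdkn1b is high in both genotypes with the transgene, at 52.6 to 144 CPM in the double mutant.

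On the low side, Paqr9 had the smallest p of all genes against Pu.1-URE-/-. It had 10.95, 23.7 and 25.1 CPM in the Wild-type libraries, 4.39 to 18.0 CPM in Mdmx-Tg, 1.35 to 2.39 CPM in Pu.1-URE-/- and 0 reads in the double mutant (edgeR adjusted p = 0.150 against Pu.1-URE-/- and 0.00102 against Wild-type). Gpx1, the glutathione peroxidase that clears hydrogen peroxide, had 1047, 1102 and 1398 CPM in the Wild-type libraries, 687 to 820 CPM in Pu.1-URE-/- and 501, 623 and 377 CPM in the double mutant (edgeR adjusted p = 0.0142 against Wild-type). Cd24a, a surface glycoprotein of maturing blood cells, stood at 222 to 239 CPM in Wild-type, 199 to 245 CPM in Pu.1-URE-/- and 111, 135 and 75.6 CPM in the double mutant. In 8 genes that rose, all 6 libraries with the transgene lay above the 6 without it (94 of all genes tested, 0.626%), and these were Mdm4, Cdkn1b, Tut4, Kdelc2, Armcx1, Abcg1, Stc2 and Pcbd1. In 3 genes that fell, Igsf9b, Gm15459 and Mars, all 6 lay below the 6 others (76 of all genes tested, 0.506%). Kdelc2 stood at 7.22 to 17.3 CPM in Wild-type and 7.19 to 13.5 CPM in Pu.1-URE-/-, against 24.2 to 72.1 CPM in Mdmx-Tg and 37.4 to 64.6 CPM in the double mutant. The genes of the last 2 paragraphs were picked after their values were seen, apart from those of the lists and of the largest falls.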

How the data were processed

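PolyA RNA of 12 libraries (4 genotypes, 3 each) was used. Per the file headers, each deposited file lists transcripts with Salmon's estimated count (expected counts, before any scaling) and the TPM that the authors' run gave. The submitters' processing notes name FastQC, Salmon and DESeq2 and the builds mm10 and GRCm38, with no versions. Index and settings are not given in the sources used here. Of 116248 transcripts 99.8% matched GENCODE M21 by version. The 253 others, with 0.0379% to 0.0841% of reads, were left out. Sums per gene were rounded to whole numbers. Reads of near-identical genes can be split between them.

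The low-count filter was filterByExpr (10 reads, 15 in total) and the scaling TMM. All 12 libraries entered 1 edgeR 4.0.16 quasi-likelihood fit (R 4.3.3) with a mean per genotype, and p-values were adjusted by Benjamini-Hochberg over 15012 genes, with a threshold of 0.05. Tested on counts simulated for this comparison (14808 genes), the fit recovered 16% of 4-fold rises, 24% of 4-fold falls, 98% of 16-fold rises and 96% of 16-fold falls, with 1 false call. The 200 changed genes had over 100 reads on average, and the simulated biological coefficient of variation was 0.548 against 0.796 in the data, so recovery in the data may be lower. P-values rest on the variation among the 3 mice of each genotype, as the labels number them. Errors after ± are approximate standard errors, and CPM are TMM-scaled. Each error is the absolute log2 difference divided by the square root of the quasi-likelihood F statistic.

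Named by rule were Mdm4, Spi1, Mdm2, Trp53 and Cdkn1a, the 12 largest rises and falls (protein coding, mean log2 CPM of at least 1, no overlap, neither predicted nor Y-linked) and up to 4 called genes per list with the smallest p, of which a subset is given. Other genes were picked after their values were seen. Members and gene lists were chosen with earlier results of these data known. Settings tried instead were DESeq2 1.42.0, limma-voom 3.58.1, factors by relative log expression, other low-count filters, only the groups compared, a replicate block, the mouse number range as a block, the Y-linked level or Jchain as a covariate, immunoglobulin genes left out, and libraries left out.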

Additional observations from a re-analysis of the deposited data

How the results depend on the processing

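The 502 calls against Wild-type became 1547 with DESeq2, 178 with the Y-linked level, 167 with Jchain and 91 without Wild-type 1 and double mutant 3, and ranged from 162 to 565 with 1 library left out. The share of calls that were higher was 73.9% and moved to 55.4% with DESeq2 (857 higher and 690 lower) and 63.9% with only the groups compared (364 and 206). Of the 348 calls against Mdmx-Tg, DESeq2 gave 1289, the mouse number range 156, the Y-linked level 92, Jchain 104, the omission of Wild-type 1 and double mutant 3 174, and single omissions 136 to 347. Against Pu.1-URE-/-, where 0 passed, DESeq2 gave 329, only the groups compared 1, the omission of Wild-type 1 and double mutant 3 1, and single omissions 0 to 4. The interaction, with 0, gave 194 with DESeq2. The causes of these moves were not tested, beyond the fewer libraries in the omissions.

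Whether the replicate number pairs the samples was not settled, as only 3 same-numbered pairs of Wild-type and double-mutant libraries were compared. Their deviations correlated at -0.058 to 0.015, and those of pairs with different numbers at -0.086 to 0.102. With the replicate number as a replicate block 387 genes passed against Wild-type, 0 against Pu.1-URE-/-, 268 against Mdmx-Tg and 0 in the interaction. Of 103 called genes followed through the 24 alternatives, 44 kept their call in every single omission and 25 in every alternative, and 0 reversed. Among calls named above without such a count, that of Fcnb was kept in 4 of the 12 single omissions. Those of Cdkn1b, Kmt2c, Vim and Ltc4s were kept in 5, and those of Notch1, Satb1 and Bcl11a in 6. With 3 libraries per genotype and a biological coefficient of variation of 0.796, many small differences can be missed. The smallest absolute log2 difference from Wild-type among the calls was 0.72 for rises and 0.78 for falls.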
